A study of Mus musculus with 16 samples.

Results

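The respiratory chain genes of T cells from lymph node (LN) and visceral adipose tissue (VAT) were compared between those transcribed in the nucleus and those transcribed in the mitochondrion. Members were taken by symbol: the nuclear set holds symbols that start with Nduf, Uqcr, Atp5 or Cox4 to Cox8 together with Sdha, Sdhb, Sdhc and Sdhd, and the mitochondrial set holds symbols that start with mt-Nd, mt-Co, mt-Cyt or mt-Atp. Pseudogene symbols and symbols with a further hyphenated suffix were dropped, which removed 14. Of 54456 gene rows, 111 were members, 98 nuclear and 13 mitochondrial. Levels were high enough to test for 90 of the 98 nuclear and for 13 of the 13 mitochondrial members.

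All groups were OT-I T cells of mouse, which carry a transgenic receptor for an ovalbumin peptide, and 16 bulk RNA libraries were made in 4 groups of 4. HFD LN and HFD VAT came from mice fed for 8 weeks a high-fat diet with 60% of its energy as fat, and lean LN and lean VAT came from mice on standard chow, also for 8 weeks. The age and further alleles of the mice are not given in the sources used here. The labels describe the cells as freshly isolated, while the design text has them cultured overnight ahead of a T cell sort, and the column names of all libraries carry the unexplained term Neg-OVA. The labels call the libraries biological replicates and do not say whether each came from a separate animal, so p-values measure the spread between these libraries. As these are bulk samples, fewer cells of a type and less RNA per cell cannot be told apart.

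The respiratory chain lies in the inner mitochondrial membrane. Complex I takes electrons from NADH and complex II takes them from succinate; both pass them to ubiquinone, complex III hands them to cytochrome c, and complex IV gives them to oxygen. Complexes I, III and IV pump protons, and complex V, the ATP synthase, uses the gradient to make ATP. Complex II is encoded wholly in the nucleus, while the other complexes need subunits from both genomes: the mitochondrial genome encodes hydrophobic core subunits, and the nuclear genome encodes the rest and the assembly factors. In T cells, respiration is known to be engaged on activation and in memory cells.

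Promoters are shown because nuclear members are known as targets of the factors NRF1 and GABP. Of 98 nuclear members, 76 had an entry in the RefSeq promoter table (build GRCm38.p6), and the start of 65 of these 76 was found in a GENCODE vM21 transcript in the orientation given. The windows searched, on both strands, were the 250 bases before the start. CCGGAAG, the core of the GABP site, was present in 13 of 76 member promoters (17.1%) and in 7.05% of 27025 promoters of all genes. The palindrome bound by NRF1, seen in capitals in the promoter of Cox6a1 and not overlapping the GABP string, was present in 5 of 76 (6.58%) and in 0.781% of all promoters. A YY1 site was present in 0 of 76 and in 0.218% of all promoters.

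The 250 bases before the start are printed for a pair of members that rose in VAT and hold the GABP string (Cox6b1, chr7:30626115-30626364, minus strand, and Ndufb7, chr8:83566508-83566757, plus strand), for Cox6a1, which holds both strings (chr5:115348959-115349208, minus strand), and for Cox7a2l, which fell and holds neither (chr17:83514334-83514583, minus strand). Capitals mark the matches. Among members that rose in VAT and had an entry, 2 of 9 held CCGGAAG, against 11 of 64 of the other members tested.
Cox6b1: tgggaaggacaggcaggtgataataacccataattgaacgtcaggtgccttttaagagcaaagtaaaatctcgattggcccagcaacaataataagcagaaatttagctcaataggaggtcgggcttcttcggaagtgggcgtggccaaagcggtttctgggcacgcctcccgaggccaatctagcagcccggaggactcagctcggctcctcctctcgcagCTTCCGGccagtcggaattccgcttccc
Ndufb7: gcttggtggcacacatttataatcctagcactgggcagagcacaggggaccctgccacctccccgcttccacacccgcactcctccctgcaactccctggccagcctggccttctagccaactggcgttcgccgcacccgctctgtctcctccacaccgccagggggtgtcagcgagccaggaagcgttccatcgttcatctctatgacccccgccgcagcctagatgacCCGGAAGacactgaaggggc
Cox6a1: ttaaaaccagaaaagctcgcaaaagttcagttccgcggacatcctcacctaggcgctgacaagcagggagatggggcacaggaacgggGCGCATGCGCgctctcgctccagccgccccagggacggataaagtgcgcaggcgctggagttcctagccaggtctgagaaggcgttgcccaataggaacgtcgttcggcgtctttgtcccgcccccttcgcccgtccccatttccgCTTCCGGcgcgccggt
Cox7a2l: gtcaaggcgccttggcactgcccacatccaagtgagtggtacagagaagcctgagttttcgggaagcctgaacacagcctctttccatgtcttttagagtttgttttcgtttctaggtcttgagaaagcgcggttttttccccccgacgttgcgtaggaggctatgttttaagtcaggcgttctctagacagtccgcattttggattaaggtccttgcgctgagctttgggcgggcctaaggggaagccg

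Mitochondrial genes also share bases, which limits how counts can be assigned. The transcripts of mt-Atp8 and mt-Atp6, both subunits of the ATP synthase, overlap by 43 bases, and those of mt-Nd4l and mt-Nd4 by 7 (GENCODE vM21; capitals mark the start codon of the second gene). How the authors' counting split such reads is not given in the sources used here, nor is the strand of the libraries, which bears on mt-Nd6, the 1 member encoded on the opposite strand.
Overlap of mt-Atp8 and mt-Atp6: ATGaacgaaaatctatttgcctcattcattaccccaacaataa

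Total counts were 40212388 to 65957407 per library, and 3 counts, the limit that a count of 0 allows, were 0.0436 to 0.0802 CPM (the count relative to library size, which was adjusted by the trimmed mean of M-values). Some VAT libraries stood apart. Lean VAT replicate 1 lacked (at most 3 counts) 13.3% of the genes whose median over the other 3 libraries of its group was at least 10 CPM, and HFD VAT replicates 1 and 3 lacked 11.4% and 11.5%, against 0.818% to 5.44% in the other 13 libraries. This share is taken within a group and cannot show a lack common to all its libraries. Genes with a count numbered 16436 to 17395 in the HFD VAT libraries and 17143 in lean VAT replicate 1. They numbered 19194 to 19881 in the other lean VAT libraries and 18110 to 20217 in LN. In lean VAT replicate 1, abundant genes with transcripts of up to 1000 nt were raised against those over 3000 nt by 1.12 (log2), against -0.68 to 0.33 in the other 15. Most nuclear members have short transcripts, so results are also given without these 3 libraries.

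Relative to nuclear members, mitochondrial members were lower in VAT than in LN, and no VAT library reached the LN range. Nuclear members took 1.12% to 2.03% of all counts and mitochondrial members 0.0648% to 0.192%. In HFD LN the log2 ratio of summed mitochondrial to summed nuclear counts was -2.70, -2.98, -2.94 and -2.82 in replicates 1 to 4, and in lean LN it was -2.95, -3.03, -3.29 and -2.84. In HFD VAT it was -4.16, -3.75, -3.397 and -3.86, and in lean VAT -3.53, -3.53, -3.58 and -3.55. The highest of the 8 VAT libraries, HFD VAT replicate 3, thus lay below the lowest of the 8 LN libraries, lean LN replicate 3. Within a library this ratio does not depend on scaling between libraries.

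The group means differed by -0.93 on HFD, a 1.91-fold lower ratio in VAT, and by -0.52 in lean mice, a 1.44-fold lower ratio, against a pooled SD of 0.196. Diet moved the ratio less: HFD minus lean was -0.24 in VAT and 0.17 in LN, and the libraries of the diets overlapped in both tissues. Without the 3 VAT libraries that stood apart the tissue differences were -0.95 and -0.53. No p-value is given for these sums, since the members were chosen with results of these data known.

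**Figure D1:**
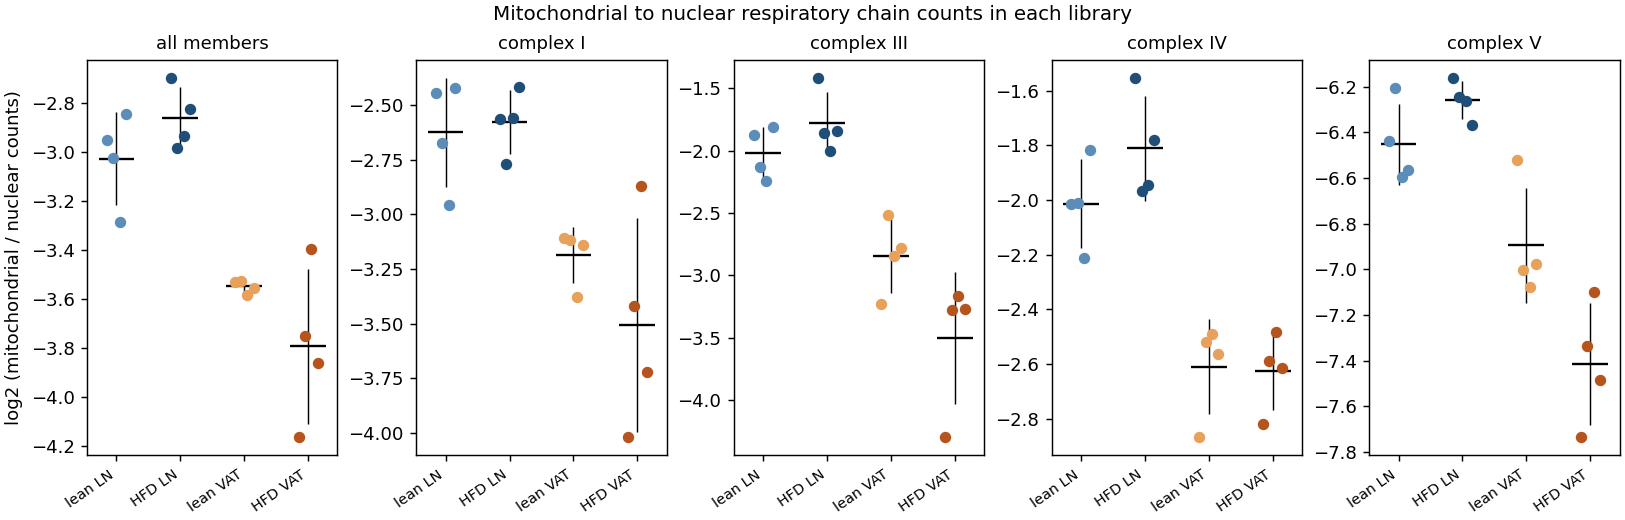
Log2 ratio of summed mitochondrial to summed nuclear counts in each of 16 libraries, for all members and for complexes I, III, IV and V; points are libraries, horizontal bars group means, vertical bars SD (n = 4), and each panel has its own y axis. All 8 VAT libraries lie below all 8 LN libraries for all members and for complexes III and IV.

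Of the complexes with members from both genomes, complex III showed the lowest ratio in VAT relative to LN: the group means differed by -1.72 on HFD and -0.83 in lean mice, and the VAT and LN libraries did not overlap in either diet. In complex I the differences were -0.93 and -0.56, and in complex IV -0.81 and -0.60, again without overlap within a diet. In complex V the difference was -1.16 on HFD, without overlap, and -0.44 in lean mice, with overlap. Complex V was also the only 1 of the 4 whose ratio separated the diets in VAT: it was -7.73, -7.34, -7.10 and -7.49 in HFD VAT and -6.52, -7.00, -7.08 and -6.98 in lean VAT. All HFD libraries were lower, and the means differed by -0.52, although the highest HFD and the lowest lean value lay close together.

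Summed levels of each set, unlike the ratio, depend on scaling between libraries. The mitochondrial sum was 1648 ± 62.7 CPM in HFD LN, 1462 ± 242 in lean LN, 1043 ± 339.8 in HFD VAT and 1212 ± 377 in lean VAT (SD, n = 4 each). Its libraries did not overlap between tissues on HFD (1577 to 1730 in LN, 729 to 1526 in VAT) and overlapped in lean mice. The nuclear sum was 11977 ± 779 and 11874 ± 1664 CPM in HFD and lean LN, and 13990 ± 1443 and 14162 ± 4253 in HFD and lean VAT, with overlap between tissues in both diets. As a mean share of unscaled counts, nuclear members took 1.27% in HFD LN and 1.28% in HFD VAT, and 1.26% and 1.38% in lean LN and VAT. Mitochondrial members took 0.175% and 0.0955% on HFD, and 0.155% and 0.118% in lean mice. Lean VAT replicate 1 held 20510 CPM of nuclear members and the other lean VAT libraries 11567 to 12582.

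All 15675 genes entered a single edgeR quasi-likelihood fit. Adjusted p-values are Benjamini-Hochberg values over these genes, with a threshold of 0.05, unless another tool is named, and log2 differences carry their standard error (SE). In the comparison of VAT with LN over the mean of both diets, 10.3% of all genes tested were called, 5.77% higher and 4.52% lower. An unadjusted p under 0.05 was found for 3588 of the 15675 genes, the background for such counts below. It was found for 33 of 90 nuclear and 4 of 13 mitochondrial members. Of 90 nuclear members 11 rose and 2 fell, and of 13 mitochondrial members 0 rose and 1 fell. The nuclear share called was 14.4%. Among the 764 genes tested with transcripts of up to 1000 nt and a mean of at least 20 CPM, 81 rose and 57 fell. That was 18.1% called, with a median of 0.02, so the nuclear share called was not above that of short and abundant genes. The median log2 difference was 0.33 over nuclear and -0.43 over mitochondrial members, and -0.08 over all genes tested. Fitted values were higher in VAT for 67 of 90 nuclear and for 0 of 13 mitochondrial members, and for 46.5% of all genes. The VAT and LN libraries did not overlap for 5 nuclear members that were higher in VAT (Atp5md, Cox5a, Cox5b, Cox6b1 and Uqcrq), beside 3.39% of all genes, and for 2 members that were lower (Cox7a2l and mt-Cytb), beside 1.7%. Of the 764 short and abundant genes, 57 were wholly higher in VAT and 27 wholly lower, and 267 had an unadjusted p under 0.05.

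**Figure D2:**
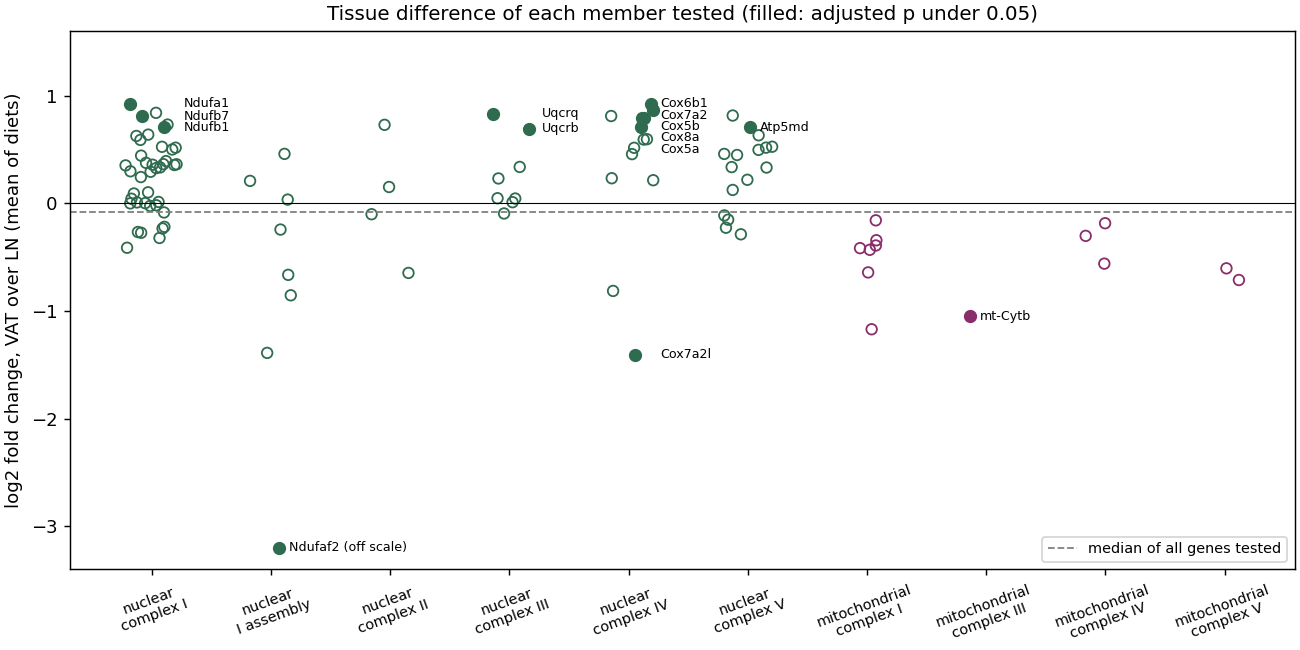
Log2 difference of VAT over LN (mean of both diets, y axis) of each of the 103 members tested, by genome and complex (x axis); filled points passed edgeR's test and the dashed line is the median of all genes tested. All 13 mitochondrial members lie below 0, and Ndufaf2 is drawn at the lower edge because its value is off the scale.

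Among mitochondrial members, mt-Cytb, which encodes cytochrome b, the core of complex III, was the 1 that fell. Its level was 471, 363, 298 and 341 CPM in HFD LN and 297, 296, 276 and 329 in lean LN. In HFD VAT it was 73.5, 141, 186 and 146, and in lean VAT 223, 185, 172 and 173. All 8 VAT libraries were below all 8 LN libraries. Over the mean of both diets mt-Cytb was 2.07-fold lower in VAT (log2 -1.05, SE 0.17, adjusted p = 0.000867), and 2.69-fold lower on HFD (log2 -1.43, SE 0.24, adjusted p = 0.00224). In lean mice the difference was -0.67 (SE 0.23, adjusted p = 0.184), although its libraries did not overlap.

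The share of mt-Cytb among mitochondrial members' counts was 16.8% to 27.2% in LN and 10.1% to 17.8% in VAT, so it was lower relative to the other mitochondrial genes as well, with overlap at the edge. mt-Co1, the catalytic subunit of complex IV, had the highest level per length of the mitochondrial members (mean of 277 CPM per kb) and took a larger share in VAT, 37.9% to 42.4% on HFD and 30.7% to 34.7% in lean mice, against 27.2% to 30.7% in LN. Its level was 500.1, 489, 484 and 475 CPM in HFD LN and 385, 537, 352 and 423 in lean LN. In HFD VAT it was 309.6, 372, 578 and 381, and in lean VAT 572, 324, 365 and 302. The tissues overlapped, with HFD VAT replicate 3 and lean VAT replicate 1 the highest of all libraries, and the log2 difference was -0.18 (SE 0.16, adjusted p = 0.574).

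The other members of mitochondrial complex I, which encode its proton-pumping membrane arm, were fitted lower in VAT by 0.16 to 1.17 (log2), and 0 of 7 passed the test, with 2 of 7 at an unadjusted p under 0.05. mt-Nd3 had the largest of these differences (log2 -1.17, SE 0.44, adjusted p = 0.119), at levels of only 1.74 to 9.53 CPM. mt-Nd5 followed (log2 -0.64, SE 0.28, adjusted p = 0.186), then mt-Nd6, mt-Nd2, mt-Nd4, mt-Nd1 and mt-Nd4l at -0.43, -0.42, -0.39, -0.34 and -0.16. mt-Nd4l was barely counted, with 5 to 58 counts per library. DESeq2 called 5 of the 13 mitochondrial members lower over the mean of both diets and limma voom 6, beside backgrounds of 21.7% and 16.1% of all genes.

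Of the other mitochondrial subunits of complex IV, mt-Co3 differed by -0.56 (SE 0.23, adjusted p = 0.163) and mt-Co2 by -0.30 (SE 0.30, adjusted p = 0.646). The ATP synthase genes mt-Atp6, part of the proton channel, and mt-Atp8 differed by -0.60 (SE 0.29, adjusted p = 0.238) and -0.71 (SE 0.38, adjusted p = 0.299). On HFD alone, libraries of 6 of 13 mitochondrial members did not overlap, all lower in VAT (mt-Atp6, mt-Co2, mt-Co3, mt-Cytb, mt-Nd3 and mt-Nd4), beside 8.01% of all genes. In lean mice this held for 2, mt-Atp8 and mt-Cytb, beside 5.7% of all genes.

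Lean VAT replicate 1 held 1776 CPM of mitochondrial members, against 985 to 1050 in the other lean VAT libraries. Without the 3 libraries that stood apart, 6 of 13 mitochondrial members fell over the mean of both diets, beside 8.14% of all genes, and their median difference was -0.77. mt-Nd1 then differed by -0.58 (adjusted p = 0.00837) and mt-Co1 by -0.39 (adjusted p = 0.0418), and mt-Cytb by -1.08 (adjusted p = 0.000202). The median of all genes was -0.19 in that fit.

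The nuclear subunits of complex IV held 5 of the 11 rises. Of the 14 tested, 5 rose and 1 fell, with a median of 0.60. That was 42.9% called, beside 10.3% of all genes and 18.1% of short and abundant genes. Cox5b, a matrix-side subunit, was at 138, 118, 145 and 136 CPM in HFD LN and 132, 133, 153 and 137 in lean LN. In HFD VAT it was at 279, 189, 261 and 216, and in lean VAT at 370, 192, 192 and 198. Every VAT library was above every LN library, and the lean VAT value of 370 belonged to replicate 1. Cox5b was 1.73-fold higher in VAT over the mean of both diets (log2 0.79, SE 0.16, adjusted p = 0.00446).

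Cox6b1, which faces the intermembrane space and helps join the complex IV dimer, had the highest level per length among nuclear members (mean over libraries of 549.9 CPM per kb). It was at 205, 233, 206 and 143 CPM in HFD LN and 146, 230.3, 148 and 157 in lean LN. In HFD VAT it was at 259, 319.6, 301 and 339, and in lean VAT at 697, 323, 243 and 327. VAT and LN libraries did not overlap, although lean LN replicate 2 and lean VAT replicate 1 were far above the rest of their groups. Cox6b1 was 1.90-fold higher in VAT (log2 0.93, SE 0.20, adjusted p = 0.00998), and was the 1 nuclear member that rose in lean mice alone (log2 1.22, SE 0.29, adjusted p = 0.0346). In lean mice without replicate 1 of VAT it differed by 0.80, and the adjusted p with 1 library left out ranged from 0.0186 to 0.119, and the call was lost without HFD LN replicate 1 or 3, HFD VAT replicate 2 or 4, lean LN replicate 1, 3 or 4, or lean VAT replicate 1.

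The other rises in complex IV were Cox7a2, the common form of subunit 7a (log2 0.87, SE 0.20, adjusted p = 0.0132), Cox8a, a small membrane subunit (log2 0.79, SE 0.22, adjusted p = 0.0327), and Cox5a, a matrix-side subunit (log2 0.71, SE 0.19, adjusted p = 0.0252). Cox5a libraries did not overlap between tissues, and those of Cox7a2 and Cox8a did, at their edges. Cox4i1, the common form of subunit 4, differed by 0.23 (SE 0.25, adjusted p = 0.675).

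Cox7a2l fell. It encodes a relative of subunit 7a that tethers complex III to complex IV in supercomplexes. Its level was 172, 205, 268 and 224 CPM in HFD LN, and 186, 231, 226 and 171 in lean LN. In HFD VAT it was 86.1, 111, 51.9 and 85.7, and in lean VAT 113, 70.0, 82.5 and 35.4. No VAT library reached the lowest LN library, and it was 2.65-fold lower over the mean of both diets (log2 -1.41, SE 0.22, adjusted p = 0.000964). The falls were of like size on HFD (log2 -1.37, SE 0.32, adjusted p = 0.0233) and in lean mice (log2 -1.44, SE 0.32, adjusted p = 0.0222). The HFD call was lost when any 1 of HFD LN replicates 3 or 4 or HFD VAT replicates 1, 3 or 4 was left out, and the lean call without lean LN replicate 2 or 3 or lean VAT replicate 2 or 3 (adjusted p up to 0.0701 and 0.0676).

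As Cox7a2 was higher and Cox7a2l lower, the log2 ratio of Cox7a2 to Cox7a2l counts within a library was -0.66 to -0.23 in the 8 LN libraries and 0.88 to 3.17 in the 8 VAT libraries. The means differed by 2.27, a 4.84-fold change, with a pooled SD of 0.52. This ratio was formed after both genes' values were seen.

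**Figure D3:**
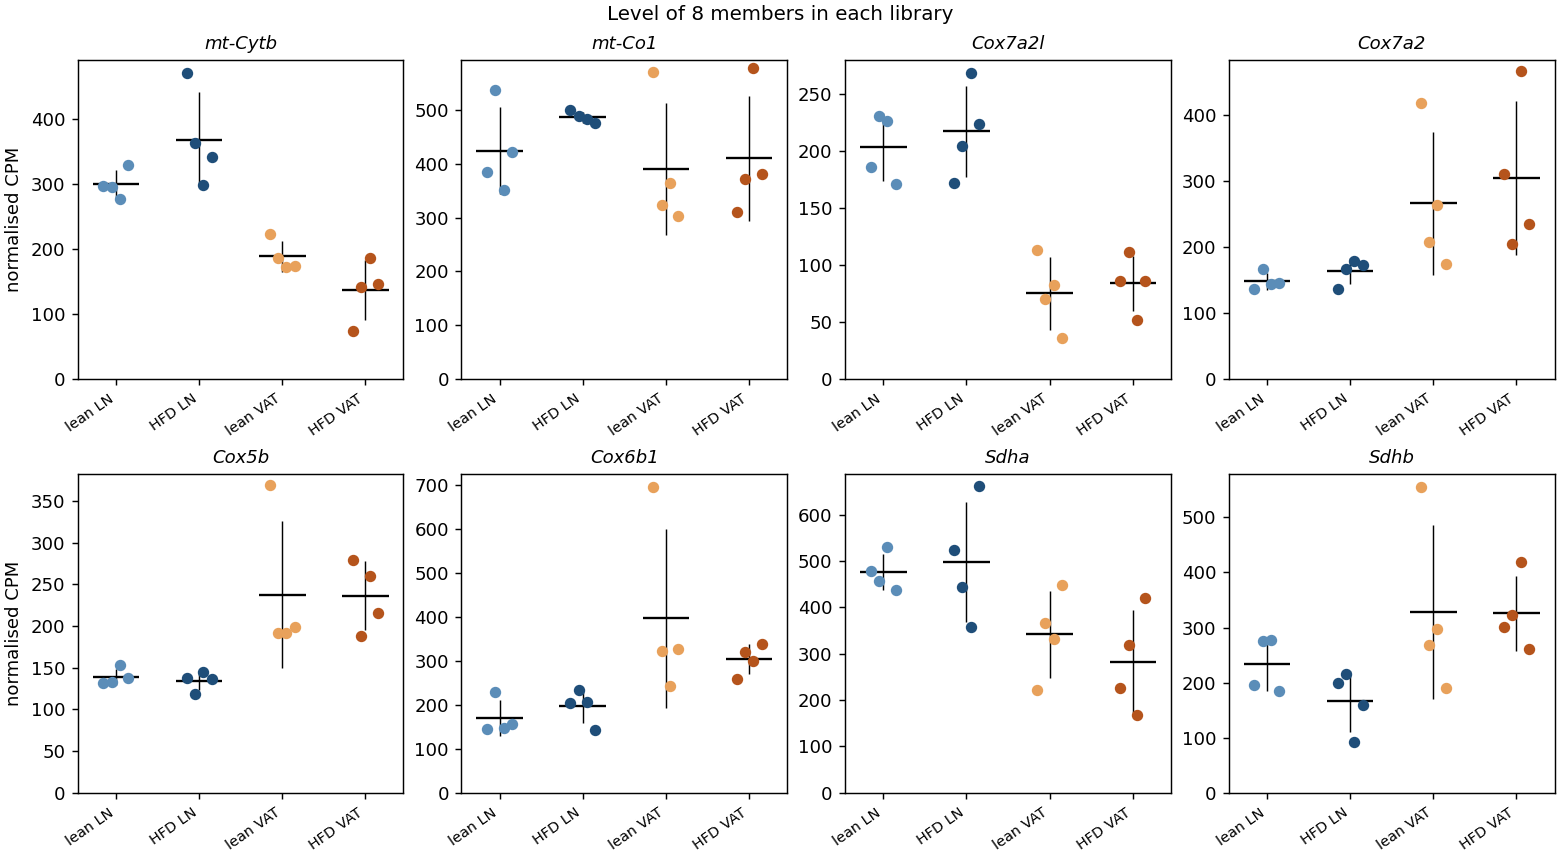
Normalised CPM of 8 members (mt-Cytb, mt-Co1, Cox7a2l, Cox7a2, Cox5b, Cox6b1, Sdha and Sdhb) in each library; points are libraries, horizontal bars group means and vertical bars SD (n = 4), and each y axis starts at 0. mt-Cytb and Cox7a2l are lower, and Cox5b and Cox6b1 higher, in all 8 VAT libraries than in all 8 LN libraries.

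In complex I, 3 of 40 nuclear subunits tested rose and 0 fell (7.50%, beside 10.3% of all genes), with a median of 0.33. The share called was thus not above the background. All 3 are accessory subunits of the membrane arm: Ndufa1 (log2 0.92, SE 0.27, adjusted p = 0.0427), Ndufb7 (log2 0.81, SE 0.24, adjusted p = 0.0494) and Ndufb1 (log2 0.71, SE 0.18, adjusted p = 0.0214). Ndufa1 was at 58.2 to 93.9 CPM in HFD LN, 65.97 to 113 in lean LN, 98.3 to 147 in HFD VAT and 93.9 to 125 in 3 lean VAT libraries, with 345 in lean VAT replicate 1. The 7 nuclear core subunits, which carry the electron path, had a median of 0.00, and 0 of 7 were called, with 1 of 7 at an unadjusted p under 0.05. Of these, Ndufs7, which holds an iron-sulphur cluster, differed by 0.01 (SE 0.21, adjusted p = 0.985) and Ndufs1 by -0.41 (adjusted p = 0.565).

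In complex III, 2 of 8 nuclear members rose (25%, beside 10.3% of all genes and 18.1% of short and abundant genes). They were Uqcrq (log2 0.83, SE 0.23, adjusted p = 0.0360) and Uqcrb (log2 0.70, SE 0.18, adjusted p = 0.0242), small subunits that bind around cytochrome b. Uqcrq was at 75.6 to 127 CPM in HFD LN and 74.3 to 125 in lean LN, against 127 to 256 in HFD VAT and 128 to 327 in lean VAT, so that the ranges met but did not overlap. Uqcrc1, a large matrix-side core protein, differed by 0.05 (SE 0.19, adjusted p = 0.936).

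In complex V, 1 of 16 rose (6.25%, also below the 10.3% of all genes). Atp5md, an accessory subunit found in the ATP synthase dimer, was at 84.0, 110.5, 120 and 88.4 CPM in HFD LN and 95.3, 102, 75.7 and 79.6 in lean LN. It was at 160.5, 149, 167 and 169 in HFD VAT and 180, 134, 139 and 134 in lean VAT, all above LN, a 1.63-fold difference (log2 0.71, SE 0.13, adjusted p = 0.00338). Atp5b, the catalytic beta subunit, differed by -0.29 (SE 0.11, adjusted p = 0.141), and Atp5e, with the largest difference of the complex, by 0.82 (SE 0.28, adjusted p = 0.0843). The genes of the membrane c-ring, which encode the same mature protein, differed by 0.33 (Atp5g1, adjusted p = 0.588), -0.15 (Atp5g2, adjusted p = 0.803) and 0.45 (Atp5g3, adjusted p = 0.0638).

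Complex II, which also works in the citric acid cycle, had 0 of 4 members called by edgeR, with 2 of 4 at an unadjusted p under 0.05, and those 2 differed in opposite directions. Sdha, the flavoprotein that oxidises succinate, was at 524, 444, 358 and 663 CPM in HFD LN and 478, 458, 530.2 and 439 in lean LN. It was at 225, 318, 168 and 421 in HFD VAT and 222, 367, 331 and 447 in lean VAT, and the tissues overlapped (log2 -0.65, SE 0.20, adjusted p = 0.0527). Sdhb, the iron-sulphur subunit that receives its electrons, was at 199, 215, 91.5 and 159 in HFD LN and 196, 275, 277 and 186 in lean LN. Its VAT values were 300.1, 323, 419 and 260.2 on HFD, all above HFD LN, and 555, 268, 297 and 191 in lean mice, with overlap (log2 0.73, SE 0.23, adjusted p = 0.0602). The membrane anchors Sdhc and Sdhd differed by 0.15 (adjusted p = 0.826) and -0.10 (adjusted p = 0.925). DESeq2 called both Sdha (adjusted p = 0.0138) and Sdhb (adjusted p = 0.0141), and limma voom called Sdha (adjusted p = 0.0358) but not Sdhb (adjusted p = 0.0555). Sdha was also called with a replicate block (adjusted p = 0.0362) and with length offsets (adjusted p = 0.0360). Without the 3 libraries that stood apart, Sdha differed by -0.40 (adjusted p = 0.138) and Sdhb by 0.44 (adjusted p = 0.237).

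The rises depended on the libraries to differing degrees. Leaving out each of the 16 libraries in turn, Atp5md, Cox5b, Cox6b1, Cox7a2 and Ndufb1 stayed called every time, as did the falls of Cox7a2l, Ndufaf2 and mt-Cytb. Cox5a lost the call without HFD LN replicate 2 or 4, HFD VAT replicate 2 or lean LN replicate 3, and Uqcrb without HFD LN replicate 3 or 4, HFD VAT replicate 2 or lean VAT replicate 3. The call was lost in 9 of the 16 fits for Cox8a, 10 for Ndufa1 and Uqcrq and 13 for Ndufb7. The adjusted p-values of Cox5a, Uqcrb, Cox8a, Ndufa1, Uqcrq and Ndufb7 reached 0.0556, 0.0600, 0.0670, 0.0852, 0.0742 and 0.0943. In edgeR, RLE scaling kept 11 of the 11 rises, library sizes without mitochondrial rows 10, a replicate block 6 and no filter 4. DESeq2 kept 11 and limma voom 10. A replicate block within each diet kept 2, Atp5md (adjusted p = 0.0467) and Cox5b (adjusted p = 0.0413). There Cox6b1, Cox7a2 and Ndufb1 had adjusted p = 0.0685, 0.0847 and 0.123. Without the 3 libraries that stood apart, 7 of the 11 rises were kept, and Ndufa1 (adjusted p = 0.0623), Ndufb1 (adjusted p = 0.0654), Ndufb7 (adjusted p = 0.261) and Uqcrq (adjusted p = 0.149) were not. The nuclear median in that fit was 0.07, beside -0.19 over all genes.

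Transcript length moved with these values. Lean VAT replicate 1 was highest both in the nuclear sum and in the balance of short and long transcripts (20510 CPM at a balance of 1.12), and lean LN replicate 4, with the lowest nuclear sum, stood at 10776 CPM and -0.58. Over all genes tested with transcripts of up to 1000 nt the median tissue difference was -0.06 over the mean of both diets, -0.16 on HFD and 0.10 in lean mice, against nuclear medians of 0.33, 0.21 and 0.37. Without lean VAT replicate 1 the nuclear medians were 0.12 over the mean of both diets and 0.07 in lean mice, beside -0.10 and -0.04 over all genes. Without the 3 libraries that stood apart the nuclear median was 0.04 in lean mice and 0.13 on HFD, beside -0.07 and -0.23 over all genes. With a length trend taken out of each library, an alternative chosen after seeing the data, 17 nuclear members rose and 4 fell, beside 11.2% of all genes. Of the 11 rises, 9 could be given a length and were kept, and Atp5md and Ndufb1 had none. Whether RNA quality had a part in the nuclear rises was not tested otherwise.

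**Figure D4:**
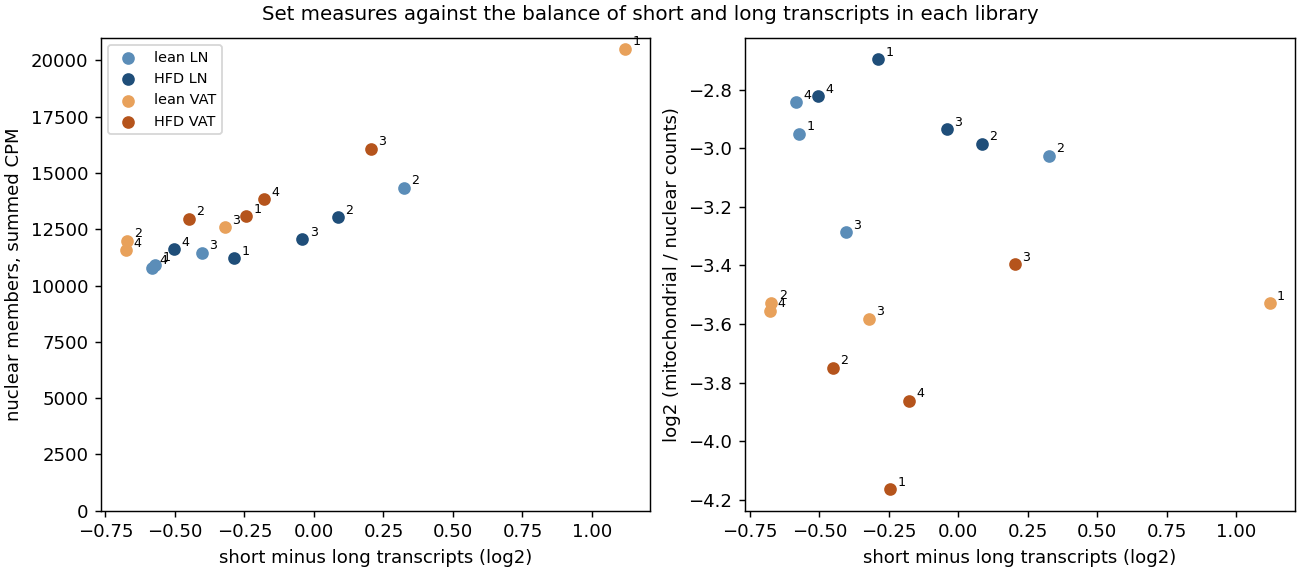
Summed nuclear CPM (left) and log2 ratio of mitochondrial to nuclear counts (right) in each library against the balance of short and long transcripts (x axis, log2); numbers are replicates and colours groups. Lean VAT replicate 1 is highest on the x axis, at 1.12, and in the nuclear sum, while its ratio of -3.53 lies among the other lean VAT libraries.

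In each diet alone fewer members were called. On HFD, where 4.56% of all genes were called (2.68% higher and 1.88% lower), 0 nuclear members rose and 2 fell (Cox7a2l and Ndufaf2), with 19 of 90 at an unadjusted p under 0.05, and mt-Cytb fell. Of all 15675 genes, 2945 on HFD and 2163 in lean mice had an unadjusted p under 0.05, so the nuclear count on HFD was close to the background. In lean mice 19 of 90 nuclear members had such a p, a larger share than over all genes. Of the 764 short and abundant genes, 181 on HFD and 170 in lean mice had one. On HFD DESeq2 called 14 of 90 nuclear members, beside 16.4% of all genes, and limma voom 6, beside 6.44%, so that both counts lay close to the background. In lean mice, where 3.04% of all genes were called (2.12% higher and 0.919% lower), Cox6b1 rose and Cox7a2l fell, and 0 of 13 mitochondrial members were called, with 1 at an unadjusted p under 0.05, 2 called by DESeq2 and 1 by limma voom. Fitted values were higher in VAT for 61 of 90 nuclear members on HFD and 69 of 90 in lean mice, and lower for 13 and 12 of 13 mitochondrial members. Libraries of 16 of 90 nuclear members on HFD and 12 of 90 in lean mice lay wholly higher in VAT, beside 7.21% and 7.24% of all genes. Those of 2 in each diet lay wholly lower, beside 8.01% and 5.7%. Of the 764 short and abundant genes, 102 on HFD and 84 in lean mice lay wholly higher, and 121 and 54 wholly lower. The mitochondrial median was -0.68 on HFD and -0.29 in lean mice, while all genes had -0.10 and 0.00. Single libraries moved these mitochondrial medians: the lean value was -0.65 without lean VAT replicate 1, -0.10 without lean LN replicate 2 and -0.16 to -0.20 without any 1 of the other lean VAT libraries, and the HFD value was -1.10 without HFD VAT replicate 3. Without the 3 libraries that stood apart the medians were -0.91 on HFD and -0.67 in lean mice.

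**Figure D5:**
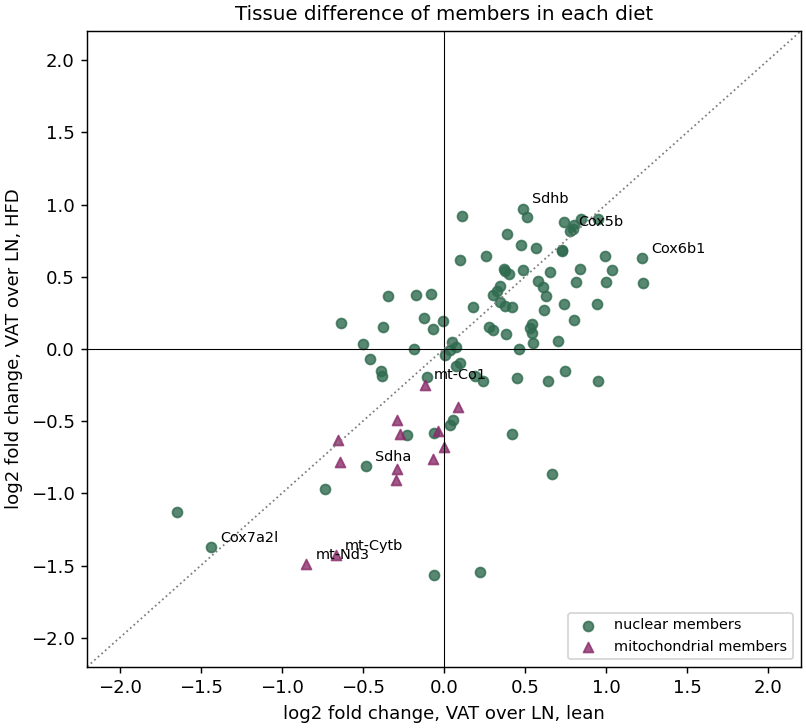
Log2 difference of VAT over LN on HFD (y axis) against that in lean mice (x axis) for 102 members tested; circles are nuclear and triangles mitochondrial members, and the dotted line marks equal values. Ndufaf2 is off the scale; 12 of 13 triangles lie below 0 on both axes, and Cox7a2l is low on both.

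The difference between diets was tested directly. For mt-Cytb the tissue difference was lower on HFD than in lean mice by 0.76 (SE 0.33), at an unadjusted p of 0.0364 and an adjusted p of 0.756. Of 13 mitochondrial members 0 were called for this difference by edgeR, DESeq2 or limma voom, 1 had an unadjusted p under 0.05, and 0.0191% of all genes were called. Of all 15675 genes, 965 had an unadjusted p under 0.05 for it. Between HFD and lean VAT, where 0.0574% of all genes were called (0.00638% higher and 0.051% lower), 0 of 13 mitochondrial members were called by any of the 3 tools, with 0 at an unadjusted p under 0.05 and a median of -0.32. Without lean VAT replicate 1 that median was -0.04. The nuclear median was -0.02, or 0.08 with RLE scaling, 0.22 without lean VAT replicate 1 and 0.16 without the 3 libraries that stood apart. Between HFD and lean LN 0% of all genes were called by edgeR. EdgeR, DESeq2 and limma voom called 0 members, and 1 nuclear and 0 mitochondrial members had an unadjusted p under 0.05. Of all 15675 genes, 1266 had such a p between diets in VAT and 529 in LN. Diets did not overlap in VAT for Atp5c1, the gamma subunit of ATP synthase (higher on HFD, log2 0.73, adjusted p = 0.575), beside 1.12% of all genes, and for Ndufaf2 (lower), beside 2.1%. In LN they did not overlap for Cox5a, which was lower on HFD (log2 -0.32, adjusted p = 1), beside 1.19% of all genes, and 0 members were wholly higher, beside 1.07%.

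Ndufaf2 was the 1 member called between diets. It encodes an assembly factor that binds late intermediates of complex I. Its counts in HFD VAT were 1, 0, 0 and 0, against 2493, 403, 583 and 499 in lean VAT, 427, 1459, 393 and 1143 in HFD LN, and 480, 1754, 596 and 1117 in lean LN. HFD VAT thus lay below every other library. From the single count, its level in HFD VAT was 4010-fold below lean VAT (95% counting interval 720 to 159000, exact Poisson on the HFD VAT count alone) and 3160-fold below HFD LN (567 to 125000); the intervals cover counting error only. Most of the lean VAT counts were from replicate 1, and without it the first ratio was 1900 (342 to 75200). It fell between HFD and lean VAT (adjusted p = 0.0128) and between VAT and LN on HFD (adjusted p = 0.000389), and in lean mice differed by 0.30 (SE 0.95, adjusted p = 0.992). The difference between diets had an adjusted p of 0.0476, which ranged from 0.0207 to 0.279 with 1 library left out and the call held only without HFD VAT replicate 1, 2 or 4 or lean VAT replicate 1.

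This absence was not confined to Ndufaf2: 84 genes had at most 3 counts in each HFD VAT library and at least 5 CPM on average in each of the other groups, while 10 or 11 genes met the same rule for each other group. Every HFD VAT library also had fewer genes with a count (16436 to 17395) than any LN library (18110 to 20217). The part of this in the absences was not tested. The 7 other complex I assembly factors were not called on HFD. Ndufaf1 differed by -1.55 (adjusted p = 0.735), at 10.7 CPM in HFD VAT and 31.4 in HFD LN, and Ndufaf5 and Ndufaf7 by -1.13 (adjusted p = 0.897) and -0.97 (adjusted p = 0.869).

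The 8 nuclear members too low to test were 7 tissue forms of complex IV subunits and Ndufb11b, a further copy of a complex I gene. Cox8b, the heart and muscle form of subunit 8, and Cox7b2 had 0 counts in all 16 libraries, and Cox4i2, Cox6a2, Cox8c, Ndufa4l2 and Ndufb11b never exceeded 0.0267 CPM, which is below 3 counts in any library. Cox7a1, the heart, muscle and brown fat form of subunit 7a, had 55 and 31 counts in lean VAT replicates 2 and 3 and at most 1 count elsewhere. Cox6b2, the testis form of subunit 6b, was high enough to test, at up to 7.42 CPM, and had 414 and 137 counts in lean LN replicates 2 and 4, 262 and 220 in lean VAT replicates 1 and 2, and at most 1 in each of the 8 HFD libraries. In VAT it was not called between diets (unadjusted p = 0.0161, adjusted p = 0.502). The common forms Cox6a1 (log2 0.46, adjusted p = 0.134) and Ndufa4 (log2 0.59, adjusted p = 0.124), the latter now placed in complex IV, were not called between tissues. The near-identical copies Cox6c2, Ndufa11b, Ndufb4c and Ndufs6b had 1.80% to 9.67% of the counts of Cox6c, Ndufa11, Ndufb4 and Ndufs6, and their counts are uncertain.

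Other genes of the pathway were read from 11 lists. Cytochrome c, Cycs, which carries electrons from complex III to IV, was at 62.3 ± 17.5 CPM in HFD LN, 53.1 ± 4.65 in lean LN, 260 ± 50.9 in HFD VAT and 190 ± 49.98 in lean VAT (SD, n = 4 each). It was 3.86-fold higher in VAT without overlap (log2 1.95, SE 0.18, adjusted p = 4.79e-06), and was the 1 gene called by edgeR among 21 electron carrier and coenzyme Q genes tested. Of this list 3 had an unadjusted p under 0.05, and DESeq2 and limma voom each called 4. Of the genes for copying and transcribing mitochondrial DNA 0 of 16 were called over the mean of both diets, 2 of 16 had an unadjusted p under 0.05, DESeq2 called 2 and limma voom 1, and their median was -0.67. Among them Tfam, which packages mitochondrial DNA and starts its transcription, differed by 0.59 (SE 0.36, adjusted p = 0.380). Of 21 mitochondrial RNA processing genes 1 fell, Rexo2, an exonuclease (log2 -1.06, SE 0.30, adjusted p = 0.0360), with a list median of -0.69.

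Of 12 nuclear regulators tested 1 rose and 2 fell over the mean of both diets. Hif1a, the hypoxia-inducible factor, rose 3.02-fold (adjusted p = 0.00345). Gabpb2, a subunit of GABP, was at 0.315 ± 0.41 CPM in HFD VAT and 28.4 ± 10.3 in lean VAT, 25.6 ± 13.2 in HFD LN and 12.9 ± 3.80 in lean LN, and fell on HFD (adjusted p = 0.00148) and between HFD and lean VAT (adjusted p = 0.0345). In lean mice Gabpb2 was higher in VAT without overlap and was not called (log2 1.14, adjusted p = 0.690). Its fall over the mean of both diets thus came from the HFD libraries. Ppargc1b, a coactivator of respiratory genes, was at 0.0169 CPM in HFD VAT, under 3 counts in each library, and 14.3 in HFD LN (adjusted p = 0.0163). Ppargc1a had 0 counts in all libraries.

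Of 40 further assembly factors tested 0 rose and 2 fell over the mean of both diets, a smaller share than the 10.3% of all genes: Bcs1l, which inserts the iron-sulphur protein into complex III (adjusted p = 0.00418), and Coa4, a complex IV factor (adjusted p = 0.0447). Both were at 3 counts or fewer in HFD VAT, at 0 and 0.0313 CPM, and in HFD LN at 19.4 and 15.8. In lean mice neither was called, with Bcs1l at 3.45 CPM in VAT and 12.2 in LN, and Coa4 higher in VAT (11.6 against 8.82 CPM, log2 0.40, adjusted p = 0.997). Of 77 mitochondrial ribosomal proteins 3 rose and 1 fell, likewise a smaller share than over all genes, with a median of 0.04; Mrpl30 rose (log2 0.85, adjusted p = 0.00580) and Mrps18b fell (log2 -3.05, adjusted p = 0.0429). Of the carriers that exchange ATP for ADP, Slc25a5 rose (log2 0.61, adjusted p = 0.0335) and Slc25a4 fell (log2 -0.79, adjusted p = 0.0271).

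Neither the citric acid cycle (0 of 16, median -0.21) nor outer membrane and import genes (0 of 18, median -0.10) had a call by edgeR over the mean of both diets, nor did translation factors (0 of 11, median -0.37). At an unadjusted p under 0.05 these lists had 2, 2 and 0 genes, DESeq2 called 2, 0 and 1, and limma voom 2, 0 and 1. Of 7 ribosomal and transfer RNA genes of the mitochondrion tested 0 were called, with a median of 0.40, 1 at an unadjusted p under 0.05 and 1 called by each of DESeq2 and limma voom.

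T cell markers, 10 of 10 tested, summed to 8565 to 10360 CPM in LN libraries and 9205 to 11780 in VAT. Over the mean of both diets 3 of them rose and 2 fell. The B and plasma cell list (13 genes) summed to 1631 to 3139 CPM in LN and 85.5 to 359 in VAT, and 10 of the 11 genes tested fell. Of the natural killer list 3 of the 5 genes tested rose, and it summed to 103 to 206 CPM in LN and 1063 to 2091 in VAT. Adipocyte markers summed to at most 2.00 CPM in any library, 0 of 9 were abundant enough to test, and Cidec was at 0. Dendritic cell markers summed to 0.193 to 22.2 CPM in LN and 35.0 to 110 in VAT, where 1 of 5 tested rose, and endothelial markers to 70.2 to 203 CPM in LN and 29.0 to 98.2 in VAT, where the 1 tested fell. Fibroblast markers summed to at most 0.950 CPM in LN and up to 40.5 in VAT, and 0 of 6 were abundant enough to test. CD4 T cell markers summed to 21.7 to 39.9 CPM in LN and 0.321 to 26.3 in VAT. Macrophage and monocyte markers summed to 39.2 to 188 CPM in LN and 39.7 to 130 in VAT. In both the CD4 and the macrophage list 2 genes were tested, of which 1 rose and 1 fell. The part of all these cell types in the tissue differences of respiratory genes was not tested.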

How the data were processed

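Bulk RNA libraries of OT-I T cells, 4 in each of 4 groups, were read from the deposited table of raw counts per gene (54456 rows, all 16 columns matched by the labels' descriptions). The submitters' processing notes name kallisto 0.42.4, DESeq2 and the build GRCh38, a human build, while the gene symbols are of mouse; further steps of the authors' counting are not given in the sources used here. The labels name conflicting kits and read lengths and a growth protocol for human fibroblasts, so neither kit nor strand was taken as known. 

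Counts were fitted with edgeR 4.0.16 (R 4.3.3; TMM scaling, filter by expression over the groups, robust quasi-likelihood test, 1 mean per group), leaving 15675 genes, and p-values were adjusted over all of them by Benjamini-Hochberg. Levels are CPM on TMM-scaled library sizes. DESeq2 1.42.0, limma 3.58.1 (voom with quality weights), RLE scaling, no filter, a replicate block, the compared groups alone and omission of libraries were alternatives. The fits were tested on simulated data. The 24 replicate pairs differed beyond sampling noise (chi-square over its degrees of freedom 288 to 1070), so no library was counted as a duplicate.

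The members, lists and tests were chosen with earlier results of these data known. Named were all mitochondrial members, nuclear members called in any comparison, Sdha to Sdhd, the members of each complex with the highest mean CPM or largest difference, tissue isoforms and c-ring genes, and up to 2 called genes per pathway list and direction with Cycs, Tfam and Ppargc1a; Ndufs1, Atp5c1, Ndufaf1, Ndufaf5 and Ndufaf7 were added after their values were seen. Figures were drawn with Matplotlib 3.10.9. Protein sequences were not used here.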

Additional observations from a re-analysis of the deposited data

Results flagged for a closer look

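In 4 libraries of a group, a value was singled out when its gap to the nearest other library, divided by the range of the group, exceeded the critical value of Dixon's test; chance does this in about 1 in 20 groups, and 20 values were singled out in 120 groups checked. Lean VAT replicate 1 accounted for most of them. It held 20510 CPM of nuclear members (other lean VAT libraries 11570 to 12580) and 1776 CPM of mitochondrial members (984.6 to 1050). Among nuclear members it was high in Ndufaf2 at 56.25 CPM (6.711 to 12.39), Atp5md at 179.8, Cox5a at 130.6, Cox5b at 369.6, Cox8a at 679.8, Ndufa1 at 345.4 and Uqcrq at 327.1. Among mitochondrial members it was high in mt-Atp6 at 52.4 CPM, mt-Co2 at 55.94, mt-Nd1 at 319.7, mt-Nd2 at 122.2, mt-Nd4 at 138, mt-Nd4l at 1.309 and mt-Nd6 at 78.87.

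In the other groups, lean LN replicate 2 was high in Cox6b1 at 230.3 CPM (146 to 157.1), and HFD LN replicate 2 in Ndufa1 at 93.93 CPM (58.21 to 62.8). HFD VAT replicate 3 was high in mt-Nd6 at 58.55 CPM (24.73 to 28.88). The single Ndufaf2 count of HFD VAT replicate 1, 0.02176 CPM, was met only because the other 3 libraries were at 0. The tissue difference of Ndufaf2 differed between diets by edgeR's quasi-likelihood test, at an adjusted p of 0.0476.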

How the results depend on the processing

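Over 26 other settings, 514 of 654 values for single members kept their direction and side of the threshold, 123 lost the call, 17 gained it and 0 reversed. Nuclear members called on HFD, in lean mice and over the mean of both diets (2, 2 and 13) became 14, 7 and 24 with DESeq2, which called 16.4%, 10% and 21.7% of all genes (edgeR 4.56%, 3.04% and 10.3%). Limma voom gave 6 on HFD and 5 in lean mice, beside 6.44% and 8.76%, and RLE scaling 4 on HFD. Without the filter they were 1 in lean mice and 6 over the mean, and 0 for the difference between diets (1). Length offsets, chosen after seeing the data, gave 15, 4 and 21. Without the 3 VAT libraries that stood apart they were 4 on HFD and 1 in lean mice. With only the compared groups they were 0 in lean mice and 0 between diets in VAT (1). Mitochondrial members called (1, 0 and 1) became 5, 2 and 5 with DESeq2, 3, 2 and 6 without those 3 libraries, and 2 on HFD with length offsets; limma voom gave 1 in lean mice and 6 over the mean. The HFD difference of the log2 ratio, -0.93, was -1.19 without the most abundant member of each set. The cause was not tested for any of these. RLE scaling moved the median of all genes for the difference between diets from -0.11 to -0.01.

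Leaving out 1 library, nuclear members called ranged from 1 to 8 on HFD (1 without HFD LN replicate 3 or 4 or HFD VAT replicate 1, 3 or 4, 4 without HFD VAT replicate 2, 8 without lean VAT replicate 1), from 0 to 2 in lean mice (0 without lean LN replicate 3, 1 without HFD LN replicate 1 or 3, HFD VAT replicate 2 or 4, any other lean LN replicate, or lean VAT replicate 1, 2 or 3), from 7 to 14 over the mean (7 without HFD LN replicate 4) and from 0 to 1 for the difference between diets. Mitochondrial members ranged from 0 to 1 in lean mice (1 without HFD VAT replicate 1) and from 1 to 2 over the mean (2 without HFD VAT replicate 3). The log2 ratio differed by -1.07 to -0.81 on HFD, -0.61 to -0.46 in lean mice, -0.79 to -0.67 over the mean, -0.38 to -0.12 between diets in VAT, 0.08 to 0.23 in LN and -0.54 to -0.29 for the difference between diets.

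Same-numbered libraries did not deviate together (correlations -0.0786 to 0.0393). With 4 libraries per group this cannot show whether libraries of the same number share an animal, and the labels do not say. With a replicate block, nuclear members called were 1 on HFD, 0 in lean mice, 0 between diets in VAT and 0 for the difference between diets. With a replicate block within each diet they were 1, 0 and 5 on HFD, in lean mice and over the mean, 0 for the difference between diets, and 0 mitochondrial members on HFD.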
